A study of Mus musculus with 6 samples.

Results

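The 36 genes described here encode the transcription factor NRF2 (gene Nfe2l2), its inhibitor KEAP1, established NRF2 target genes, and the enzymes of glutathione, thioredoxin, superoxide and peroxide metabolism together with the ferritin chains. They are a list of gene symbols grouped by function, drawn up with earlier results of these data known, and each of the 36 symbols matched 1 of the 56792 gene rows of the deposited count table. The data are RNA sequencing counts from C2C12, an established mouse myoblast line from skeletal muscle whose cells fuse into myotubes when the serum is lowered. All 6 libraries came from wild-type C2C12 cells that had been grown in 10% fetal calf serum and then differentiated for 4 days in 2% horse serum. In 3 libraries the cells had received 1 µM lenvatinib, an oral inhibitor of the receptor tyrosine kinases for vascular endothelial and fibroblast growth factors and of several related kinases, and in the other 3 they had not. The study is a single cell line in culture, and the labels used here name no vehicle and no time at which the drug was added. They also leave unsaid whether each library was a culture of its own, so the p-values below reflect the scatter among libraries, which could be only technical.

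NRF2 is a short-lived protein, because KEAP1 binds it and hands it to a CUL3 ubiquitin ligase for degradation. Oxidants and electrophiles modify cysteines of KEAP1, after which NRF2 accumulates, pairs with a small MAF protein and binds antioxidant response elements near genes for glutathione synthesis, quinone reduction, NADPH supply, thioredoxin recycling and iron storage. In muscle, these enzymes remove the superoxide and peroxide that mitochondria, NADPH oxidases and contraction produce, and they limit lipid peroxidation in the membranes of the fibres.

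All 36 genes passed the filter on low counts. With lenvatinib, 12 of them rose (33.3%), 5 fell (13.9%) and 19 did not pass the threshold, an adjusted p under 0.05 in edgeR's quasi-likelihood test with Benjamini-Hochberg adjustment over the 14989 gene rows tested. Over all tested rows, 28.2% were called, 13.3% as higher and 14.9% as lower. Since 35 of the 36 genes had a mean of at least 5 CPM (counts of a gene scaled to one common library size), they can also be read against the rows at or above that level, of which 16.3% rose and 16.5% fell. The share that rose was thus above both backgrounds, while the share that fell was near them. The second background sets only a floor of 5 CPM and is not otherwise matched for abundance. The median absolute log2 fold change was 0.104 for the 36 genes and 0.115 for all tested rows. The changes were small: 2 genes, Gpx3 and Gsta4, moved by over 1.5-fold (5.56%, against 5.67% of all tested rows), and the median log2 fold change was 0.050 (range -0.19 to 0.72), beside 0.0027 over all rows. That median was 0.081 without untreated replicate 1 and 0.076 without lenvatinib replicate 1. The 3 lenvatinib values all lay above the 3 untreated values for 14 genes and all below them for 5, so the groups were separate for 52.8% of the genes and for 40.1% of all tested rows. In bulk RNA such a change can lie in the number of cells of a type or in the RNA per cell, and these cannot be told apart.

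**Figure D1:**
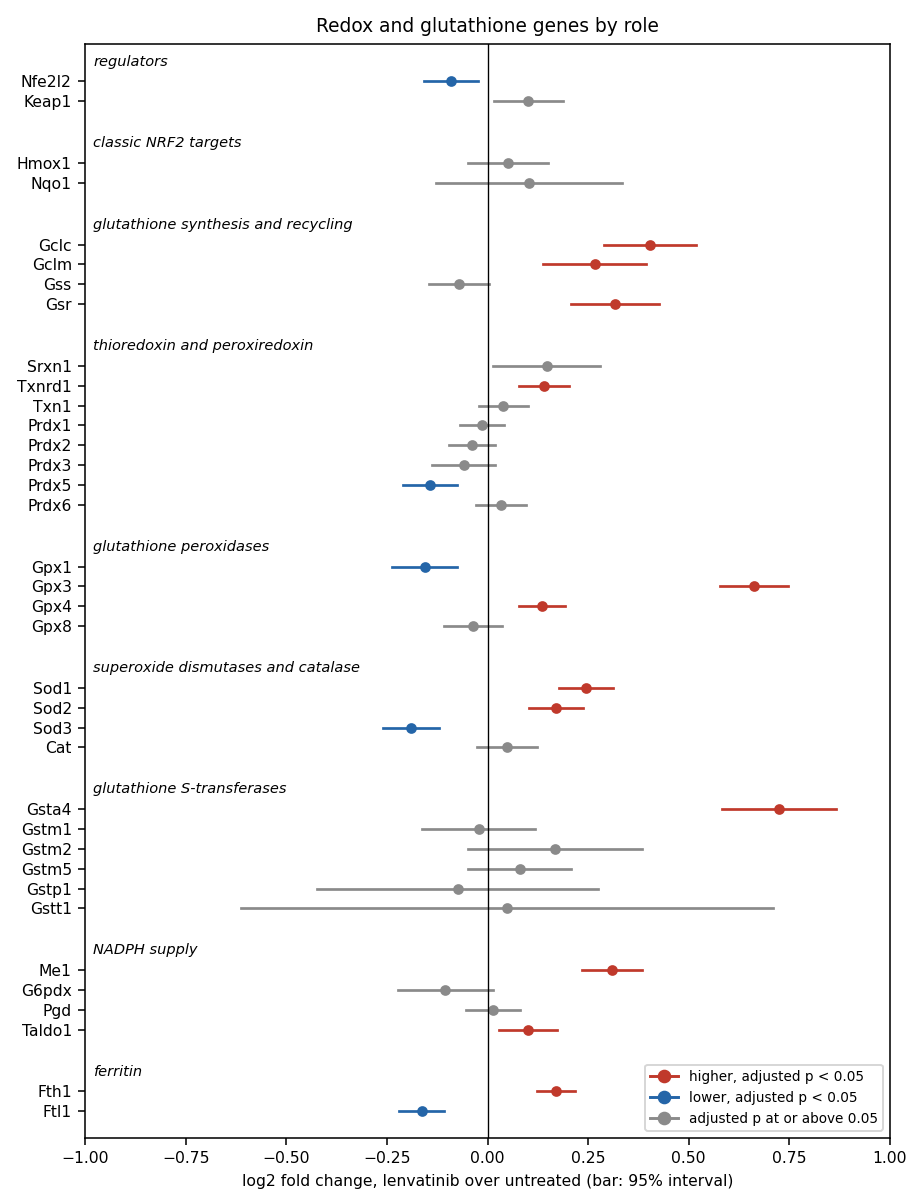
Log2 fold change of each of the 36 genes, lenvatinib over untreated, with its 95% interval, ordered by the role of the protein. Genes that rose, 12 in number, lie to the right of 0, the 5 that fell lie to the left, and Gpx3 and Gsta4 stand farthest out.

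**Figure D2:**
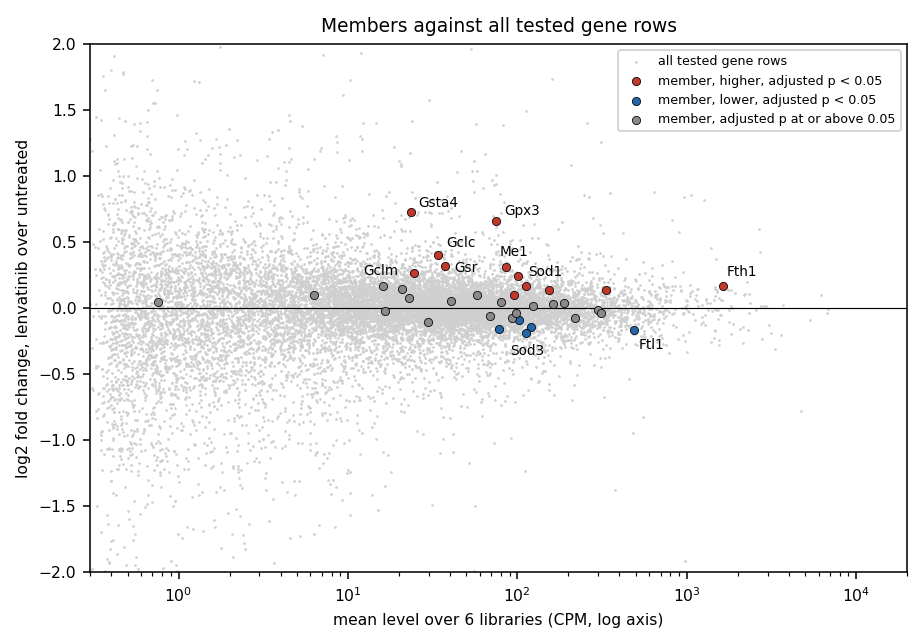
Each point is a gene row, with its mean level over the 6 libraries in CPM on a log axis and its log2 fold change, lenvatinib over untreated. The 36 redox genes are drawn over all 14989 tested rows, 67 of which lie outside the plotted range, and most of them lie close to 0 within the cloud of all rows.

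Library totals ran from 24566768 to 32406563 counts, so that 3 counts correspond to 0.0926 to 0.122 CPM. The first principal component (55.8% of the variance) separated the groups, and along the second (12.5%) lenvatinib replicate 1 stood apart from the other 5 libraries. The 36 genes together held 0.524 to 0.539% of the counts in untreated libraries and 0.553 to 0.564% with lenvatinib. Summed skeletal muscle markers (Myog, Mymk, Myh3, Tnnt3, Ckm, Des, Mb and Actn2) lay at 13015 to 13416 CPM in the untreated and 13661 to 13695 CPM in the lenvatinib libraries, and 5 of the 8 rose, Des and Actn2 fell and Tnnt3 was not called. Markers of other cell types were low. The 6 macrophage markers summed to 6.47 to 7.03 CPM without and 5.62 to 5.85 CPM with lenvatinib, with Adgre1 at 0 in all libraries. The 6 endothelial markers summed to 0.745 to 1.01 and 0.848 to 1.55 CPM (Emcn at 0 in all), and the 6 erythroid markers to 0.226 to 0.470 and 0.402 to 0.566 CPM (Alas2 and Hbb-bs at 0 in all). The 6 adipocyte markers summed to 40.7 to 42.6 and 36.7 to 41.6 CPM, nearly all of it Lpl and Cebpa, with Plin1 at 0 in all libraries. Lpl rose and Cebpa and the macrophage marker Cd14 fell. The part of these markers in the results was not tested.

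Per length, the most abundant transcripts of the set were the ferritin chains. The level of a gene is given here as CPM per kilobase of its deposited feature length. That length may differ from the length of the transcript expressed, which was not checked. The order of genes and the ratios between genes depend on it. In untreated cells the ferritin heavy chain Fth1 stood at 442 ± 5.30 and the light chain Ftl1 at 369 ± 12.8 CPM per kb (SD, n = 3). Next came the lipid hydroperoxide reductase Gpx4 at 185 ± 6.34 and thioredoxin, Txn1, at 176 ± 5.72 CPM per kb, whose values overlapped. Prdx2 (104), Prdx1 (98.8) and Gstp1 (97.0 CPM per kb) followed, the last pair overlapping. The classic target Nqo1 (3.65), the glutathione synthesis subunit Gclm (3.51) and Gstt1 (0.494 CPM per kb) closed the order, and Nqo1 and Gclm overlapped. With lenvatinib the first 10 places did not change, while Gpx3 moved from rank 15 to 11, Gsta4 from 25 to 21 and Gclc from 32 to 29.

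**Figure D3:**
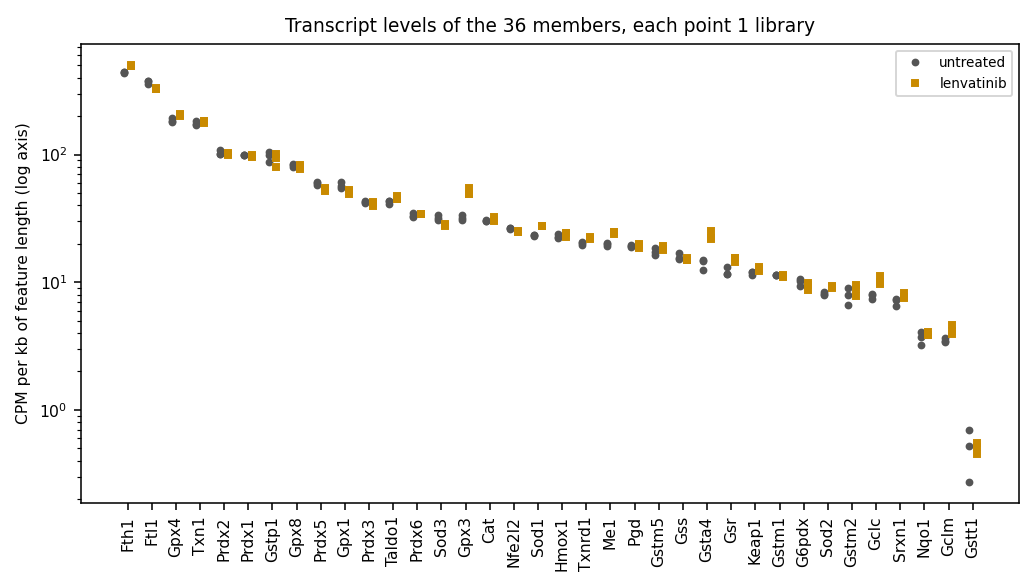
Level of each of the 36 genes in CPM per kb of feature length on a log axis, 1 point per library, ordered by the untreated mean. Levels span from 0.494 CPM per kb for Gstt1 to 442 for Fth1 (untreated means), and for most genes the untreated and lenvatinib points lie close together.

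Antioxidant response elements were looked for in the promoters, as the sequence that NRF2 and small MAF proteins bind. The core TGACNNNGC, on either strand, was searched in the RefSeq windows from 250 bases before to 50 bases after each annotated start (GRCm38.p6), which cover 30 of the 36 genes. Of these, 10 (33.33%) held the core in at least 1 window, beside 13.99% of all 27025 genes with a window: Nfe2l2, Gclm, Srxn1, Txnrd1, Prdx1, Sod1, Gstm5, Me1, G6pdx and Pgd. Hmox1, Gclc, Gsr, Prdx6, Sod3 and Gsta4 had no window. Of these, Gclc, Gsr and Gsta4 rose, Sod3 fell, and Hmox1 and Prdx6 were not called. Among the 10 genes with a core, 4 rose, 1 fell and 5 were not called, and among the 20 without, 5 rose, 3 fell and 12 were not called. Over all tested rows, 13.3% rose and 14.9% fell. The shares among all genes with a core were not computed, so no link between core and call can be read from these counts. The windows are short, so elements farther from the start were not searched. Bases beside the core were left free, so a match need not be a full element.

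The cores that began before the start are printed with up to 10 bases on either side, because they let the sequence be set beside the expression of each gene. They are on the strand that reads the core 5′ to 3′, with the core in capitals:
Gclm, rose: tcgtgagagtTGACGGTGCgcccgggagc
Txnrd1, rose: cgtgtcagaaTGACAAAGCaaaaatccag
Sod1, rose: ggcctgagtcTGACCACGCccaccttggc
Me1, rose: gatgccgccgTGACTCAGC
Nfe2l2, fell: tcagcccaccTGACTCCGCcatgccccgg
Prdx1, not called: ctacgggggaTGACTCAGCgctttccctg
Gstm5, not called: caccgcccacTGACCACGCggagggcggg
G6pdx, not called: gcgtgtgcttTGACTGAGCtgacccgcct
In GRCm38.p6 they lie at chr3:122245413-122245441 (minus strand, 134 bases before the start of Gclm), chr10:82859104-82859132 (minus strand, 92 bases before an alternative start of Txnrd1), chr16:90220696-90220724 (minus strand, 56 bases), chr9:86695912-86695930 (minus strand, 6 bases, running over the start), chr2:75704885-75704913 (minus strand, 240 bases), chr4:116685456-116685484 (minus strand, 133 bases), chr3:107895802-107895830 (plus strand, 42 bases) and chrX:74428919-74428947 (plus strand, 57 bases). The sites of Nfe2l2, Gstm5, Me1 and G6pdx fall within exons of GENCODE M21 transcripts, and those of Gclm, Txnrd1, Prdx1 and Sod1 do not. The sites of Prdx1 and Me1 also hold TGACTCA, the AP-1 motif, which overlaps the core; it occurred in 5 of the 30 genes (16.67%) and in 5.95% of all genes with a window. A match is not a binding site, and the genes with one were found among those that rose, fell and were not called.

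Nfe2l2, which encodes NRF2 (ENSMUSG00000015839, chr2:75505857-75534985 in the deposited table, minus strand), measured 107, 107 and 104 CPM in the untreated libraries and 99.4, 98.6 and 101 CPM with lenvatinib. The groups did not overlap, and the transcript fell by 1.06-fold, a log2 fold change of -0.090 ± 0.033 SE, adjusted p = 0.0383. This call rested on small margins: it was lost without untreated replicate 1 (adjusted p = 0.117) or 2 (0.0897), without lenvatinib replicate 1 (0.0872), 2 (0.118) or 3 (0.0537), with the replicate number as a block (0.0526), with upper quartile scaling (0.058), with no filter on low counts (0.0834) and with DESeq2 (0.0931). Keap1, the inhibitor, measured 56.6, 56.5 and 53.4 CPM in the untreated libraries and 61.9, 57.6 and 59.1 CPM with lenvatinib. All 3 lenvatinib values were above the untreated ones, but the log2 fold change of 0.10 with a 95% interval from 0.016 to 0.19 (adjusted p = 0.0676) did not pass the threshold; without lenvatinib replicate 2 the adjusted p was 0.0475.

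Hmox1 and Nqo1, widely used as readouts of NRF2 activity, were not called. Hmox1 encodes heme oxygenase, which cleaves heme to biliverdin, carbon monoxide and iron, and it measured 41.7, 38.8 and 39.5 CPM in the untreated libraries and 39.2, 42.3 and 42.8 CPM with lenvatinib. Nqo1 encodes the NADPH quinone reductase and was low in these cells, with 6.73, 6.15 and 5.32 CPM in the untreated libraries and 6.38, 6.79 and 6.36 CPM with lenvatinib. For both genes the groups overlapped. The log2 fold change was 0.051 with a 95% interval from -0.049 to 0.15 (adjusted p = 0.489) for Hmox1 and 0.10 with a 95% interval from -0.13 to 0.34 (adjusted p = 0.56) for Nqo1, so larger changes of Nqo1 than of Hmox1 would have gone undetected.

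Of the 4 genes of glutathione synthesis and recycling, 3 rose and 1 was not called. Gclc and Gclm encode the catalytic and the modifier subunit of glutamate-cysteine ligase, the rate-limiting enzyme of glutathione synthesis. Gclc (ENSMUSG00000032350, chr9:77661817-77701767, plus strand in the deposited table) measured 30.0, 30.3 and 27.9 CPM in the untreated libraries and 42.3, 38.0 and 36.5 CPM with lenvatinib, and Gclm (ENSMUSG00000028124, chr3:122039206-122064381, plus strand), one of the genes with a promoter core, measured 23.02, 21.6 and 21.8 CPM in the untreated libraries and 24.8, 29.1 and 26.0 CPM with lenvatinib. Every lenvatinib value of either subunit was above every untreated one. Gclc rose 1.32-fold (log2 fold change 0.40 ± 0.056 SE, adjusted p = 2.53e-07) and Gclm 1.20-fold (0.27 ± 0.063 SE, adjusted p = 0.000992). Their ratio per kb within a library, chosen after its values were seen, was 2.18, 2.34 and 2.14 in the untreated and 2.85, 2.18 and 2.34 in the lenvatinib libraries, values that overlap, with lenvatinib replicate 1 the highest.

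Gsr, glutathione reductase, which turns oxidised glutathione back to its reduced form with NADPH, measured 35.99, 32.1 and 31.7 CPM in the untreated libraries and 42.6, 42.5 and 39.3 CPM with lenvatinib. The groups did not overlap, and Gsr rose 1.25-fold (0.32 ± 0.054 SE, adjusted p = 9.47e-06). Gss, glutathione synthetase, which adds glycine in the last step of the synthesis, measured 92.8, 100.3 and 91.5 CPM in the untreated libraries and 89.1, 92.3 and 89.3 CPM with lenvatinib, with overlapping groups and a log2 fold change of -0.072 with a 95% interval from -0.15 to 0.0023 (adjusted p = 0.149). The row of Gss overlaps that of Acss2 on the opposite strand, which rose (0.18, adjusted p = 0.0472). That of Gclm overlaps Gm6061 on its own strand over 492 bases (0.11, adjusted p = 0.125). Gm6061 stood at 48.3 CPM without and 52.1 CPM with lenvatinib, above Gclm itself at 22.1 and 26.6 CPM. No source used here states whether reads were counted by strand, which would not separate rows of the same strand in any case. Reads shared by such rows cannot be told apart.

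Of the 4 genes listed under NADPH supply, 2 rose, Me1 and Taldo1, the latter not itself a source of NADPH. Me1, cytosolic malic enzyme, whose promoter core runs over the start, makes NADPH while it turns malate into pyruvate. It measured 78.6, 76.6 and 73.4 CPM in the untreated libraries and 91.7, 95.5 and 95.9 CPM with lenvatinib, which separates the groups by more than their spread, and it rose 1.24-fold (0.31 ± 0.037 SE, adjusted p = 5.69e-09). Taldo1, the transaldolase of the non-oxidative pentose phosphate pathway, measured 89.6, 94.6 and 93.8 CPM in the untreated libraries and 103, 97.4 and 98.1 CPM with lenvatinib. It was higher in all 3 lenvatinib libraries and rose 1.07-fold (0.10 ± 0.035 SE, adjusted p = 0.0274), a call lost without untreated replicate 1 (adjusted p = 0.158), without lenvatinib replicate 1 (0.146) and with DESeq2 (0.082). The dehydrogenases of the oxidative branch, which make the NADPH of the pentose phosphate pathway, were not called. G6pdx, the glucose-6-phosphate dehydrogenase of that branch, measured 32.38, 31.6 and 28.9 CPM in the untreated libraries and 30.1, 26.7 and 29.3 CPM with lenvatinib, a log2 fold change of -0.11 with a 95% interval from -0.22 to 0.013 (adjusted p = 0.189). Pgd, the phosphogluconate dehydrogenase, ranged from 119 to 129 CPM, with a log2 fold change of 0.013 with a 95% interval from -0.055 to 0.082 (adjusted p = 0.82). The row of G6pdx overlaps that of Ikbkg (0.052, adjusted p = 0.32).

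Among the 8 thioredoxin and peroxiredoxin genes, 1 rose, 1 fell and 6 were not called. Txnrd1, the cytosolic thioredoxin reductase and a selenoprotein with a promoter core at an alternative start, measured 146, 149.6 and 142 CPM in the untreated libraries and 165, 157 and 160.4 CPM with lenvatinib. Its groups did not overlap, and it rose 1.10-fold (0.14 ± 0.031 SE, adjusted p = 0.000454). Srxn1, sulfiredoxin, which restores peroxiredoxins after overoxidation, measured 18.5, 20.7 and 20.4 CPM in the untreated libraries and 23.3, 21.7 and 21.04 CPM with lenvatinib. All 3 lenvatinib values exceeded the untreated ones, but by little for replicate 3, and the log2 fold change of 0.15 with a 95% interval from 0.014 to 0.28 (adjusted p = 0.0933) did not pass the threshold. Prdx5, a peroxiredoxin of mitochondria, peroxisomes and cytosol, measured 129, 128 and 124 CPM in the untreated libraries and 112, 115 and 118 CPM with lenvatinib. The groups were separate, and Prdx5 fell 1.10-fold (-0.14 ± 0.033 SE, adjusted p = 0.000701).

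The abundant members of this group were not called. The log2 fold change of Txn1, the cytosolic thioredoxin, was 0.039 with a 95% interval from -0.022 to 0.099 (adjusted p = 0.369). For Prdx1 and Prdx2, the main cytosolic peroxiredoxins, it was -0.014 with a 95% interval from -0.069 to 0.041 (adjusted p = 0.75) and -0.038 with a 95% interval from -0.095 to 0.019 (adjusted p = 0.35). For the mitochondrial Prdx3 it was -0.059 with a 95% interval from -0.14 to 0.019 (adjusted p = 0.278) and for Prdx6, which also reduces phospholipid peroxides, 0.034 with a 95% interval from -0.028 to 0.096 (adjusted p = 0.46). In each of the 5 genes the groups overlapped, with 179.9 to 192 CPM for Txn1, 291 to 303 CPM for Prdx1, 305 to 329 CPM for Prdx2, 65.2 to 72.2 CPM for Prdx3 and 156 to 167 CPM for Prdx6 over the 6 libraries, and the 5 intervals all lay between -0.14 and 0.099. The row of Prdx2 overlaps those of Rnaseh2a and Junb, and Junb fell (-0.36, adjusted p = 2.73e-10), while the row of Prdx5 overlaps that of Trmt112 (0.022, adjusted p = 0.791).

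The glutathione peroxidases moved in both directions. Gpx3, the secreted peroxidase of extracellular fluid (ENSMUSG00000018339, chr11:54793279-54801203, plus strand in the deposited table), measured 57.9, 60.7 and 55.9 CPM in the untreated libraries and 98.5, 89.4 and 88.6 CPM with lenvatinib. The lowest lenvatinib library lay far above the highest untreated one, and the mean went from 58.2 ± 2.42 to 92.2 ± 5.50 CPM (SD, n = 3), a 1.58-fold rise (0.66 ± 0.042 SE, adjusted p = 1.36e-15). Gpx4, which reduces lipid hydroperoxides within membranes and thereby restrains ferroptosis, measured 332, 312 and 314 CPM in the untreated libraries and 359, 349.8 and 344 CPM with lenvatinib. It rose 1.10-fold with no overlap between groups (0.14 ± 0.028 SE, adjusted p = 0.000215). Gpx1, the widespread cytosolic and mitochondrial enzyme, measured 78.5, 87.4 and 81.0 CPM in the untreated libraries and 70.9, 74.2 and 76.1 CPM with lenvatinib. All lenvatinib values were below all untreated ones, and Gpx1 fell 1.11-fold (-0.16 ± 0.040 SE, adjusted p = 0.00228). Gpx8, an enzyme of the endoplasmic reticulum without selenocysteine, ranged from 93.0 to 101 CPM over the 6 libraries and was not called. Its log2 fold change was -0.035 with a 95% interval from -0.11 to 0.037 (adjusted p = 0.513).

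Gpx3 and Gpx1 are both selenoproteins. The ratio of Gpx3 to Gpx1 in CPM per kb, chosen after its values were seen, was 0.586, 0.552 and 0.549 in the untreated and 1.10, 0.958 and 0.925 in the lenvatinib libraries, with means of 0.563 ± 0.0206 and 0.996 ± 0.0949 (SD, n = 3). With lenvatinib the transcripts of the secreted and of the intracellular enzyme were thus about equally abundant per deposited feature length.

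Superoxide dismutases turn superoxide into hydrogen peroxide, each in its own compartment, and the 3 genes did not move together. Sod1, the copper-zinc enzyme of the cytosol, also with a promoter core (ENSMUSG00000022982, chr16:90017642-90023217, plus strand), measured 92.5, 92.1 and 92.2 CPM in the untreated libraries and 110.1, 108 and 109 CPM with lenvatinib. The spread within each group was far smaller than the gap between them, and Sod1 rose 1.19-fold (0.24 ± 0.033 SE, adjusted p = 1.3e-07). Sod2, the manganese enzyme of mitochondria, measured 103, 104 and 108 CPM in the untreated libraries and 117, 117 and 120.5 CPM with lenvatinib. It rose 1.12-fold, again without overlap (0.17 ± 0.033 SE, adjusted p = 8.8e-05). Sod3, the secreted copper-zinc enzyme that binds the extracellular matrix, measured 119.7, 126 and 115 CPM in the untreated libraries and 103, 106 and 107 CPM with lenvatinib. It went the other way, every lenvatinib library lying below every untreated one, and fell 1.14-fold (-0.19 ± 0.035 SE, adjusted p = 2.92e-05). The ratio of Sod1 to Sod3 in CPM per kb, also chosen after its values were seen, averaged 0.724 ± 0.0323 without and 0.979 ± 0.0251 with lenvatinib (SD, n = 3). Cat, the peroxisomal catalase, ranged from 78.5 to 85.0 CPM and was not called, with a log2 fold change of 0.048 with a 95% interval from -0.026 to 0.12 (adjusted p = 0.361). The row of Sod1 overlaps that of Scaf4 on the other strand (-0.063, adjusted p = 0.383).

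Of the 6 glutathione S-transferases, which join glutathione to electrophiles, 1 rose. Gsta4 prefers hydroxynonenal and other products of lipid peroxidation and showed the largest fold change of the 36 genes. This gene (ENSMUSG00000032348, chr9:78090056-78116631, plus strand in the deposited table) measured 18.4, 19.0 and 15.7 CPM in the untreated libraries and 27.4, 28.2 and 31.6 CPM with lenvatinib. The lowest lenvatinib library lay above the highest untreated one, and the mean went from 17.7 ± 1.74 to 29.1 ± 2.21 CPM (SD, n = 3), a 1.65-fold rise (0.72 ± 0.069 SE, adjusted p = 1.99e-10). The other 5 had overlapping groups. Over the 6 libraries Gstm1 ranged from 16.1 to 16.9 CPM, Gstm2 from 12.8 to 18.6 CPM and Gstm5 from 20.97 to 24.8 CPM. The mu class genes gave log2 fold changes of -0.022 with a 95% interval from -0.16 to 0.12 (adjusted p = 0.861) for Gstm1, 0.17 with a 95% interval from -0.049 to 0.38 (adjusted p = 0.257) for Gstm2 and 0.079 with a 95% interval from -0.048 to 0.21 (adjusted p = 0.383) for Gstm5; without untreated replicate 2, Gstm2 was called (adjusted p = 0.0293). Gstp1, the most abundant transferase per length, was uneven between libraries, with 242, 230.2 and 200.2 CPM in the untreated libraries and 218, 184 and 235 CPM with lenvatinib, and its log2 fold change was -0.075 with a 95% interval from -0.42 to 0.27 (adjusted p = 0.743). Gstt1 of the theta class ranged from 0.417 to 1.06 CPM, and its interval, from -0.61 to 0.71, is too wide to show a change of either sign at this depth. The row of Gstm5 overlaps that of 4933431E20Rik on the other strand (-0.076, adjusted p = 0.652).

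**Figure D4:**
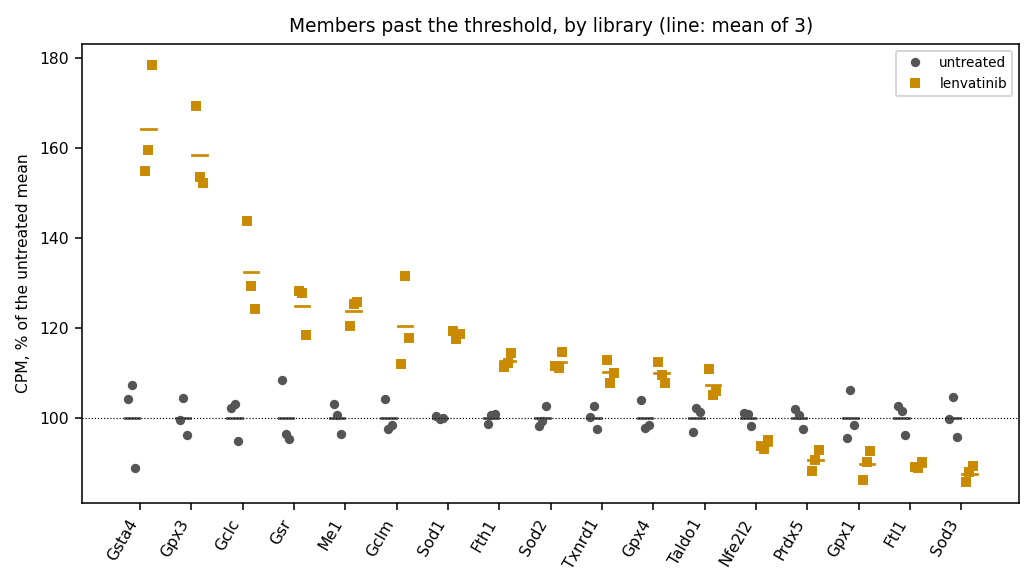
Each library's CPM as a percentage of that gene's untreated mean, for the 17 genes past the threshold, with 3 untreated and 3 lenvatinib points per gene and a line at the mean of each group. For all 17 genes the points of the groups do not overlap, the gap is widest for Gsta4 and Gpx3 while the means lie closest together for Nfe2l2 and Taldo1.

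The ferritin chains moved in opposite directions. Ferritin is a shell of heavy and light chains that stores iron: the heavy chain oxidises ferrous iron, and the light chain favours its deposition as a mineral core. Fth1, the heavy chain (ENSMUSG00000024661, chr19:9957962-9962462, plus strand in the deposited table), measured 1513, 1541 and 1548 CPM in the untreated libraries and 1708, 1719 and 1754 CPM with lenvatinib. Ftl1, the light chain (ENSMUSG00000050708, chr7:45107368-45109308, minus strand), measured 532, 527 and 498 CPM in the untreated libraries and 462, 460.4 and 467 CPM with lenvatinib. Neither gene's groups overlapped. Fth1 rose 1.13-fold (0.17 ± 0.024 SE, adjusted p = 1.82e-07) and Ftl1 fell 1.12-fold (-0.16 ± 0.028 SE, adjusted p = 8.25e-06). The ratio of heavy to light chain in CPM per kb within a library, chosen after the values were seen, was 1.15, 1.19 and 1.26 without and 1.499, 1.51 and 1.52 with lenvatinib, with means of 1.20 ± 0.0539 and 1.51 ± 0.0112 (SD, n = 3), and the values of the groups did not overlap.

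**Figure D5:**
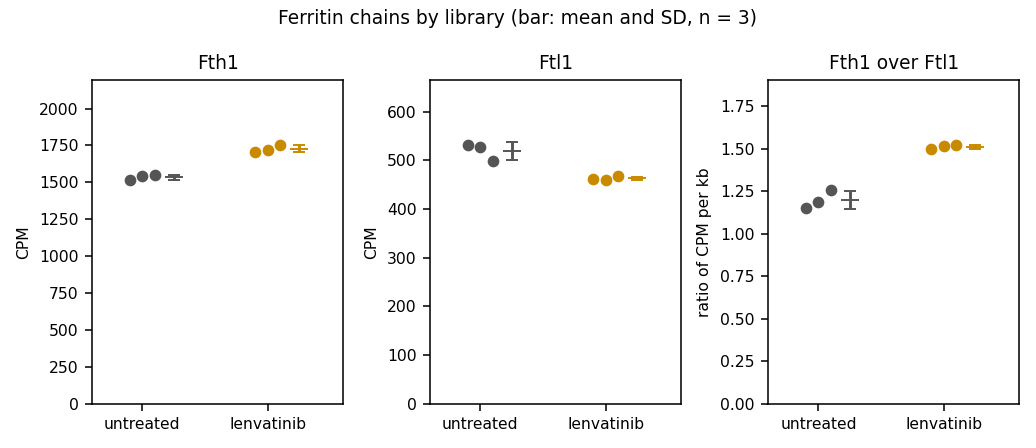
CPM of Fth1 (left) and Ftl1 (middle) and their ratio in CPM per kb (right) in each of the 3 untreated and 3 lenvatinib libraries, with the mean and SD beside the points. Fth1 and the ratio are higher and Ftl1 is lower in every lenvatinib library, from axes that start at 0.

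Translation of both ferritin chains is held back by iron regulatory proteins that bind an iron responsive element, a hairpin with a short loop, in the leader of the mRNA. A search of the 5′ UTRs of 22500 coding genes (GENCODE M21 on GRCm38) for a bulged C, 5 stem bases, the loop CAGTGN and 5 pairing bases found the pattern in 31 genes (0.138%), among them both ferritin chains and Slc40a1, the iron exporter ferroportin. The sites are printed because these 3 iron genes share the element and differed in the direction of their transcripts. They lie at chr19:9982732-9982760 (plus strand), chr7:45459779-45459807 (minus strand) and chr1:45925465-45925493 (minus strand) of GRCm38, each within 1 exon, and read 5′ to 3′, with the loop in capitals:
Fth1, rose: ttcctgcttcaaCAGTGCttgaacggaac
Ftl1, fell: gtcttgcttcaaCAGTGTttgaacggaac
Slc40a1, fell: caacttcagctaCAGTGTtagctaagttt
Slc40a1 measured 24.0, 25.2 and 23.5 CPM in the untreated libraries and 17.9, 17.4 and 15.4 CPM with lenvatinib, with every lenvatinib library below every untreated one (log2 fold change -0.52 ± 0.067 SE, adjusted p = 3.55e-08). The match describes the sequence; binding was not measured.

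Among other genes of the same pathways, rises and falls were both found. Of 102 further genes listed by function, 101 had a row and 90 were tested, of which 15 rose (16.7%), 21 fell (23.3%) and 54 were not called, beside 13.3% and 14.9% of all tested rows, with a median log2 fold change of -0.0090. Without lenvatinib replicate 2 the number that rose was 9. Of all rows with a mean of at least 5 CPM, 16.3% rose and 16.5% fell. The 16.7% that rose here was near the first of these shares, though some of the 90 genes lie below 5 CPM. Among 26 further NRF2 pathway genes 6 rose and 7 fell. The risers with the smallest p were Slc3a2 (0.18, adjusted p = 1.88e-06), the shared heavy chain of several amino acid transporters, cystine import among them, Abcc4 (0.43, adjusted p = 0.00106), an export pump, and Trim16 (0.31, adjusted p = 0.00178), a ubiquitin ligase. Those that fell were led by Ugdh (-0.47, adjusted p = 5.63e-14), which makes UDP-glucuronic acid, Bach1 (-0.20, adjusted p = 1.72e-05), a repressor that competes with NRF2 for its sites, and Sqstm1 (-0.12, adjusted p = 0.000368), the autophagy receptor that binds KEAP1. Values in parentheses here and in the next paragraph are log2 fold changes.

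Of 23 other glutathione genes, 3 rose and 4 fell. The risers were Mgst3 (0.69, adjusted p = 7.81e-12), a microsomal transferase, Chac1 (0.37, adjusted p = 0.000378), which degrades glutathione, and Esd (0.087, adjusted p = 0.0225), which hydrolyses S-formylglutathione. Those with the smallest p that fell were Gsto1 (-0.70, adjusted p = 3.96e-17), an omega class transferase, Glrx (-0.46, adjusted p = 3.54e-07), glutaredoxin, and Oplah (-0.27, adjusted p = 0.00267), the oxoprolinase of glutathione turnover. Of 18 other thioredoxin and peroxide genes, 3 rose, namely Msrb3 (0.29, adjusted p = 5.51e-10), a methionine sulfoxide reductase, Sesn2 (0.43, adjusted p = 5.86e-09), a sestrin, and Nxn (0.11, adjusted p = 0.0154), nucleoredoxin, and 3 fell, namely Sesn3 (-0.38, adjusted p = 1.16e-11), Txnip (-0.36, adjusted p = 2.73e-08), the thioredoxin interacting protein, and Nox4 (-0.26, adjusted p = 0.000329), an NADPH oxidase. Of 13 other selenoprotein genes, Selenon (0.18, adjusted p = 0.000441) and Selenos (0.13, adjusted p = 0.0192) rose and 4 fell, led by Selenop (-0.20, adjusted p = 4.71e-05), Selenok (-0.17, adjusted p = 0.000337) and Selenow (-0.22, adjusted p = 0.000691). Of 10 iron handling genes, Ncoa4 (0.11, adjusted p = 0.025), the receptor that carries ferritin to lysosomes, rose, and Slc40a1, Pcbp1 (-0.17, adjusted p = 1.64e-06), an iron chaperone, and Steap3 (-0.15, adjusted p = 0.00362), an iron reductase, fell. Leaving out 1 library ended the call of Esd (without untreated replicate 2 or 3 or lenvatinib replicate 1 or 2; adjusted p up to 0.124), Nxn (untreated 3 or lenvatinib 2; up to 0.0737), Selenos (untreated 1 or lenvatinib 1 or 2; up to 0.0997) and Ncoa4 (untreated 1 or 2 or lenvatinib 3; up to 0.216). With DESeq2 on all 6 libraries the calls of Esd (adjusted p = 0.0542), Selenos (0.0635) and Ncoa4 (0.0827) were also lost.

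Several of the 36 genes have near-identical copies elsewhere in the genome, and counting can split reads between them or drop reads that match several of them. Rows of such copies held 20.4% of the summed counts for Gpx4, 10.6% for Ftl1, 8.37% for Gstp1 with Gstp2, and under 5% for Gstm2, Prdx2, Txn1 and Fth1. After their counts were added, an alternative chosen after seeing the data, the log2 fold change was 0.15 for Gpx4 (adjusted p = 7.27e-05), -0.14 for Ftl1 (adjusted p = 0.000121) and 0.17 for Fth1 (adjusted p = 1.33e-07), and no call among the 36 genes changed. The light chain copies themselves, Ftl1-ps1 (0.13, adjusted p = 0.0697) and Ftl2-ps (0.057, adjusted p = 0.633), were not called. Adding copies cannot restore reads that the counting dropped, and copies were looked for by gene symbol only.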

How the data were processed

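The deposited table holds raw counts of reads per gene row, not normalized by the authors, for all 6 libraries, with a deposited feature length in bases. Hisat2 2.0.1 was the aligner per the labels' protocols, and HTSeq 0.6.1 and the build mm10 are named per the submitters' processing notes. The table's positions are not those of mm10 and are printed as deposited, without a build. Groups and replicate numbers came from the sample titles. Here, CPM were computed with TMM factors (0.996 to 1.007) and edgeR 4.0.16 (R 4.3.3) was fitted to all rows kept by filterByExpr (minimum count 10, minimum total 15), 14989 of 56792, with no covariates. The biological coefficient of variation was 3.60%. SEs came from the F statistic. Replicates differed by more than sampling noise, so none was counted as a copy. Counting floors cover counting error only. The fit was tested on simulated counts that gave every gene the same 3.60% biological coefficient of variation. That run does not cover genes whose replicates scatter more or less than this. All 36 members are named, and of each list of other genes up to 3 called genes per direction with the smallest p. The members and lists were chosen with earlier results of these data known. Alternatives were other scalings and filters, DESeq2 1.42.0, limma-voom (limma 3.58.1), a fit without robust estimation, a replicate block, leaving out rows wider than their gene or each library, and adding copies. Promoters came from RefSeq (GRCm38.p6) and 5′ UTRs from GENCODE M21.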

Additional observations from a re-analysis of the deposited data

How the results depend on the processing

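Of the 17 called members, 15 stayed past the threshold under all 17 alternatives, and 13 of the 19 others kept their sign and stayed short of it under all. Nfe2l2 was not called in 9 alternatives and Taldo1 in 3. With 1 library left out, 11 to 13 members rose and 4 to 5 fell, their median log2 fold change was 0.041 to 0.081, other pathway genes that rose numbered 9 to 13 and those that fell 17 to 19, and 3618 to 3797 of all rows were called. Each of these settings tests 5 libraries. Of the uncalled members, Prdx1, Gstp1, Gstt1 and Pgd changed sign when 1 library was left out, with log2 fold changes from -0.027 to 0.0027 for Prdx1, -0.16 to 0.018 for Gstp1, -0.26 to 0.36 for Gstt1 and -0.012 to 0.047 for Pgd. Same-numbered libraries of the groups did not deviate together (correlations of 0.022, -0.078 and -0.0042). So few libraries cannot exclude a pairing, and the labels state none. With the replicate block 4134 rows were called, and 12 members rose and 4 fell. At a filter of 5 CPM Gstt1 was not tested. Depth limits Gstt1 most, at 0.755 CPM in untreated cells.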

Other observations

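A near relative of Gsta4 outside the 36 genes, chosen after its values were seen, changed by more than any of them. Gsta1, an alpha class glutathione S-transferase, had 166, 97 and 123 counts in the untreated libraries and 362, 390 and 538 with lenvatinib. Its level went from 4.77 ± 1.29 to 15.7 ± 1.02 CPM (SD, n = 3), a 3.30-fold rise (log2 fold change 1.72 ± 0.13 SE, adjusted p = 1.06e-09, edgeR), with the groups far apart. Gsta2, its near-identical neighbour, stood at 1.06 CPM without and 1.66 CPM with lenvatinib and was not called (0.70, adjusted p = 0.435), and reads of the pair may be split by the counting, so the value of Gsta1 alone is uncertain.

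Slc7a11, the light chain of the cystine importer whose heavy chain partner is Slc3a2, was low, at 1.51 ± 0.369 CPM without and 2.13 ± 0.353 CPM with lenvatinib (SD, n = 3), and did not pass the threshold (0.49 ± 0.22 SE, adjusted p = 0.0908, edgeR). Of the copies of Gpx4, the row Gpx4-ps2 also rose (0.19 ± 0.040 SE, adjusted p = 0.000412, edgeR).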
